A study of Mus musculus with 4 samples.

Results

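The cells described here are resident macrophages of the mouse colon that carry abundant complement C1q transcripts and no detected Cd4 or Ly6c2 transcript. They were chosen by their measured values. Per cell, C is the number of C1qa, C1qb and C1qc UMIs per 10000 UMIs of the cell, where a UMI (unique molecular identifier) marks 1 captured RNA molecule. Members had C of at least 120, 0 Ly6c2 UMIs, at most 1 AA467197 UMI, fewer than 2 UMIs of Lyve1 and Cd163 together, and 0 Cd4 UMIs. Folr2 also belongs to the rule and was not analysed here. Of 5420 cells, 1915 were members: 438 and 1131 cells in chow replicates 9 and 11, and 169 and 177 cells in HFD replicates 1 and 3.

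The cells came from male C57/Bl6N mice of 6 to 7 weeks, held under SPF conditions, that ate normal chow or a coconut-based high-fat diet (HFD, 60%) for 1 week. No allele or drug was used, and both groups went through the same isolation. Live CD45+ Lin- CD11b+ CD24- cells of the lamina propria, positive for Ly6C or CD64, were sorted from each of 2 chow and 2 HFD mice, and each mouse was 1 library. The deposited counts gave a median of 3266 to 3926 UMIs per cell in the 4 mice, and 23 cell barcodes occurred in more than 1 library. Diet was compared over mice, since cells of 1 mouse are not replicates, and with 2 mice per diet an exact test of a single value cannot give p under 0.33.

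Most macrophages of the adult colon descend from blood monocytes that lose Ly6C and gain MHC class II, CX3CR1 and F4/80 as they mature in the lamina propria. Mature cells take up dying cells and luminal material, respond to interleukin 10 and express C1q, the recognition molecule of the classical complement pathway. Cd4 and Lyve1 mark resident cells that are replaced slowly in the gut, and Lyve1 cells are known to lie along blood vessels. Interferon gamma acts on macrophages and induces guanylate-binding proteins, the chemokine Cxcl9 and the immunoproteasome.

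The C1q genes are neighbours on chromosome 4 of GRCm38: C1qa at chr4:136895917-136898803, C1qc at chr4:136889804-136893065 and C1qb at chr4:136880129-136886187, all on the minus strand. Because they chose the cells, their values are a description. The median C of members was 199 and 203 on chow and 207 and 195 on HFD, so members of both diets held C1q at a similar level. Member C reached 365 and 416 on chow and 377 and 354 on HFD. Just inside the threshold, 79 members had C from 120 to 130, with Cx3cr1 at 291 CPM (UMIs scaled to a total of 1000000) and Ccr2 at 575 CPM. Just outside, 66 cells with C from 110 to 120 that met the other conditions held Cx3cr1 at 258 CPM and Ccr2 at 714 CPM. At the Cd4 edge, 348 otherwise eligible cells had 1 Cd4 UMI, with Ccr2 at 135 CPM against 308 CPM in members. For Ly6c2, 129 cells had 1 UMI, 85 of them from HFD mice. A single AA467197 UMI was carried by 65 members, and 15 cells had 2. A single UMI of Lyve1 or Cd163 was carried by 68 members, 67 of them from chow mice, and 31 cells with 2 such UMIs lay outside.

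The labelled cell type was checked against markers that the rule did not use. Csf1r, the receptor for the macrophage growth factor, stood at 851, 861, 729 and 667 CPM in chow replicates 9 and 11 and HFD replicates 1 and 3, the order used throughout. Fcgr1, which encodes the sorting marker CD64, stood at 141, 203, 233 and 209.9 CPM. Cx3cr1, the fractalkine receptor, stood at 487, 516, 325 and 239.7 CPM, and Adgre1, which encodes F4/80, at 699, 724, 432 and 320.4 CPM. Mertk, a receptor for dying cells, was low, at 30.1, 33.2, 29.3 and 17.4 CPM. These macrophage markers were present in every mouse. Csf1r and Fcgr1 stood at a like level in the other sorted cells, with means over the 4 mice of 777 CPM in members and 696 CPM in other cells for Csf1r and of 197 and 193 CPM for Fcgr1, so these 2 genes did not set members apart. Markers of other cells were low but not at 0. The T and innate lymphoid list (6 of 7 markers measured) summed to 52.4 to 93.2 CPM, and Cd3e was at 0 in 3 of 4 mice. The epithelial list (7 of 7 measured) summed to 9.50 to 38.4 CPM with Epcam at 0 in every mouse. The dendritic cell list (7 of 7 measured) summed to 37.5 and 43.3 CPM (chow) and 105 and 88.2 CPM (HFD). The B and plasma cell list (4 of 7 measured) summed to 297, 464, 222 and 160.2 CPM in members, against 8874, 8068, 3143 and 1510 CPM in all other cells. The immunoglobulin A gene Igha and Jchain made up most of it in members and are abundant outside them, and free RNA in the droplets was not measured here. The fibroblast and endothelial list (4 of 5 measured) summed to 18.6 to 62.7 CPM, neutrophil markers (2 of 5 measured) to 14.8 to 24.7 CPM and the eosinophil marker Siglecf (1 of 3 measured) to 1.24 to 2.45 CPM.

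Members made up 48.5% of the cells of chow replicate 9 (95% exact binomial interval 45.1 to 51.8%) and 56.5% of chow replicate 11 (54.3 to 58.7%), against 17.5% of HFD replicate 1 (15.1 to 20.04%) and 11.4% of HFD replicate 3 (9.89 to 13.1%). The diets did not overlap. The mean was 52.5% ± 5.69 (SD, n = 2 mice) on chow and 14.5% ± 4.29 on HFD, a difference of -38.0 percentage points (two-sided exact permutation test, p = 0.33, the smallest this design allows). A share of sorted cells says nothing of how many cells the tissue held. At the first step of the rule, 72.6% and 82.6% of chow cells reached the C1q threshold, against 25.8% and 20.3% of HFD cells. The intervals cover counting error only.

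The Cd4 step changed the share in the other direction. Among Lyve1-low C1q-high cells, 70.5% and 75.2% of chow cells and 89.9% and 91.2% of HFD cells lacked a Cd4 UMI, a difference of 17.7 percentage points (two-sided exact permutation test, p = 0.33, the smallest possible). Cells that lack a Cd4 UMI include cells that express Cd4 below detection. On chow, the Cd4-negative share was 84.7% in the third of cells with the fewest UMIs, 72.9% in the middle and 63.9% in the deepest. On HFD it was 92.1%, 90.6% and 89.1%. With every cell thinned to 2000 UMIs before the rule was applied, the Cd4-negative shares were 81.4% and 84.9% on chow and 94.4% and 94.2% on HFD, and the diets again did not overlap. Members were then 61.8% and 69.8% of chow cells and 23.7% and 17.3% of HFD cells, over cells of at least 2000 UMIs. Shallower cells were left out, 111 and 356 on chow and 190 and 325 on HFD. Monocyte-type cells, which should lack Cd4, were taken as Ly6c2-positive cells with low C1q. This C1q-low group does not stand for every Ly6c2-positive cell below the member threshold. The monocyte-type cells carried a Cd4 UMI in 0 of 69, 2 of 82, 0 of 367 and 3 of 647 cells. A count of 0, taken as up to 3 counts of the total, allows a share of up to 4.35% in chow replicate 9 and 0.817% in HFD replicate 1, and the upper bounds of the exact two-sided 95% binomial intervals are 5.21% and 1.00%. Median depths in these cells were 3154, 2927, 4144 and 3094 UMIs, beside 4346, 4058, 3608.5 and 4398 UMIs in the Lyve1-low C1q-high cells, of which 29.5%, 24.8%, 10.1% and 8.76% carried one.

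**Figure D1:**
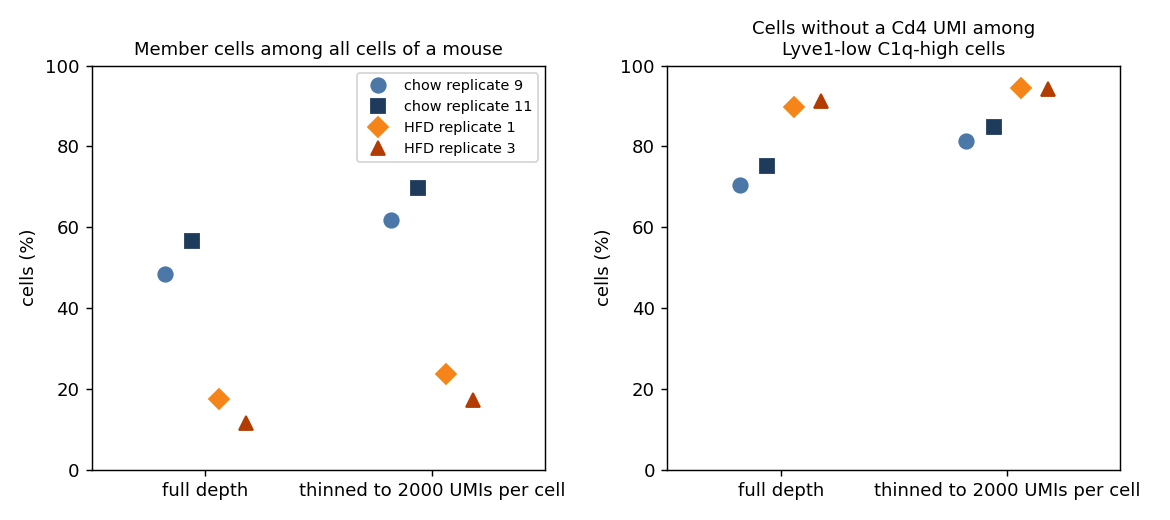
Percentage of cells per mouse (vertical axis, 0 to 100%) at full depth and with every cell thinned to 2000 UMIs. The left panel shows members among all cells of a mouse, where both chow mice lie above both HFD mice, and the right panel shows cells without a Cd4 UMI among Lyve1-low C1q-high cells, where the order is reversed.

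To ask how the diet changed the members themselves, their UMIs were summed per mouse (1894674 and 4482143 UMIs on chow, 648653 and 805123 on HFD) and compared with edgeR's quasi-likelihood test at a false discovery rate of 1%, Benjamini-Hochberg adjusted over 4930 genes. On HFD, 75 genes were higher, 1.52% of the genes tested, and 56 were lower, 1.14%. Values below are CPM after TMM scaling, changes are log2 fold changes of HFD over chow, and n is 2 mice per diet. The detection filter counted members of both diets together, so a gene rare in 1 diet could enter only by being high in the other, and had to differ. Of the genes called higher, 8 had a UMI in under 5% of chow members, Ly6i, Ass1, Ccl5, Cxcl9, Il18bp, C3, Klrk1 and Gda, and of those called lower 3 had one in under 5% of HFD members, Igfbp4, Gm37795 and Igf1. Their values are given as a description. For all 131 genes the HFD mice lay on the same side of both chow mice. Those higher on HFD included interferon-induced, monocyte and nuclear respiratory chain genes, and those lower included resident macrophage, immediate-early and heat shock genes. The count rested on HFD replicate 3, without which 19 genes were called, of which 18 were among the 131. Ly6i, Ass1, Il18bp, C3 and Gda fell below the detection filter without that mouse and were not tested there. With chow replicate 9 left out the count was 255. In summed cells, a change in the makeup of the members and a change within each cell cannot be told apart.

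Of 34 listed interferon-gamma-induced genes 28 were in the matrix and 16 passed the filter on low counts. Of these 15 had a positive fold change and 10 were called, all higher, with a median log2 fold change of 1.65 against -0.01 over all genes tested. The filter counted cells of both diets together, so a gene close to 0 on chow could enter only by being high on HFD. Counts and medians over all tested genes of this list, here and below, are therefore given as a description. Over the 13 genes of the list with a UMI in at least 5% of chow members, a restriction chosen after seeing the data, 7 were called higher and the median was 1.29. The other 3 were Cxcl9, Ly6i and Ccl5. Ly6i, a small surface protein of the Ly6 family, stood at 1.10 and 2.97 CPM in chow mice against 202 and 212 CPM in HFD mice (log2 fold change 6.41, SE 0.32, adjusted p = 8.47e-08). It was close to undetected on chow. Cxcl9, a chemokine that draws CXCR3-bearing T cells, stood at 8.22 and 27.9 CPM in chow mice against 259 and 604 CPM in HFD mice (log2 fold change 4.44, SE 0.44, adjusted p = 5.74e-05). The diets did not overlap, and HFD replicate 3 was the higher of the HFD mice. Gbp2, a guanylate-binding protein that attacks vacuoles of intracellular pathogens, stood at 23.6 and 30.9 CPM in chow mice against 315 and 325 CPM in HFD mice (log2 fold change 3.52, SE 0.21, adjusted p = 3.62e-07). The HFD mice lay close together for this gene. Ly6a, which encodes Sca-1, stood at 23.03 and 50.6 CPM in chow mice against 324 and 550.3 CPM in HFD mice (log2 fold change 3.51, SE 0.32, adjusted p = 3.81e-05). Ccl5, a chemokine for T cells and monocytes, stood at 37.3 and 39.4 CPM in chow mice against 229 and 555 CPM in HFD mice (log2 fold change 3.36, SE 0.33, adjusted p = 5.74e-05). Other called genes of the list, with their log2 fold changes, included Zbp1 (2.47), a sensor of Z-form nucleic acids, AW112010 (1.68), Calhm6 (1.67) and Gbp7 (1.10). Without HFD replicate 3, 7 of the list were still called and the median was 1.34. The abundant Fcgr4, an IgG receptor of this list, stood at 320.2 and 416 CPM in chow mice against 303 and 412 CPM in HFD mice (log2 fold change -0.04, SE 0.20, adjusted p = 0.928).

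Of 27 tested type I interferon-induced genes 25 had a positive fold change and 7 were called, all higher, with a median of 0.57. Over the 26 detected in at least 5% of chow members, which leaves out Ifit3, 7 were called higher and the median was 0.54. Irf7, the transcription factor that amplifies type I interferon, stood at 34.5 and 31.1 CPM in chow mice against 111 and 173 CPM in HFD mice (log2 fold change 2.13, SE 0.25, adjusted p = 2.66e-04). Isg15, a ubiquitin-like modifier, stood at 47.7 and 54.2 CPM in chow mice against 168 and 164 CPM in HFD mice (log2 fold change 1.69, SE 0.20, adjusted p = 2.78e-04). Log2 fold changes of the others called were 2.35 and 1.37 for the restriction factors Ifitm1 and Ifitm3, 1.00 for Ifi27l2a, 1.18 for Rtp4 and 1.09 for Phf11b. Without HFD replicate 3 the median was 0.59 and 1 gene was called, Isg15. Bst2, which tethers virions, stood at 218 and 316 CPM in chow mice against 241 and 275 CPM in HFD mice (log2 fold change -0.06, SE 0.20, adjusted p = 0.912). Outside these lists, Il18bp, the secreted inhibitor of interleukin 18, stood at 12.1 and 11.2 CPM in chow mice against 68.2 and 154 CPM in HFD mice (log2 fold change 3.28, SE 0.35, adjusted p = 1.35e-04). Ass1, argininosuccinate synthase of the arginine cycle, stood at 11.5 and 6.86 CPM in chow mice against 117 and 132 CPM in HFD mice (log2 fold change 3.85, SE 0.29, adjusted p = 5.96e-06). Both had a UMI in under 5% of chow members and passed the filter through the HFD cells.

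Gbp2 and Isg15 are known to carry interferon response elements, and the stretch of promoter with the letters searched is shown for these called genes. The search covered the 250 bases before each gene's start in RefSeq (GRCm38.p6) for the interferon-stimulated response element GAAANNGAAA, on both strands, and for TTCNNNGAA, the gamma-activated site, which reads alike on both strands. Capitals mark the match, which lies 59 bases before RefSeq's start of Gbp2 and 78 before that of Isg15. GENCODE M21 starts Gbp2 upstream of RefSeq, at position 142620602, and by that annotation the Gbp2 match lies inside the gene.

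Gbp2, chr3:142620589-142620628, plus strand: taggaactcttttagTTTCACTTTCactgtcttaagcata

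Isg15, chr4:156200872-156200911, minus strand: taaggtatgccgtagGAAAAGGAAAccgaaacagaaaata

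Isg15 held another match, 66 bases before its start. Of the 75 genes higher on HFD, 59 had a promoter entry and 6 of them (10.2%) held GAAANNGAAA, against 3.86% of the 3934 tested genes with an entry and 3.46% of all 27025 entries. Among 43 of the 56 lower genes 1 held it (2.33%). TTCNNNGAA was found for 6 of 59 higher genes (10.2%), 6 of 43 lower genes (14.0%) and 7.27% of the genes tested. A match of letters is a description of the sequence and not a binding site.

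Among monocyte genes, 5 of 14 tested were called, all higher on HFD, with a median of 0.73. Over the 13 genes detected in at least 5% of chow members, which leaves out Gda, 4 were called and the median was 0.38. Plac8, abundant in blood monocytes, stood at 43.3 and 62.9 CPM in chow mice against 691 and 624 CPM in HFD mice (log2 fold change 3.60, SE 0.21, adjusted p = 3.62e-07). Chil3, a chitinase-like protein of monocytes and alternatively activated macrophages, stood at 16.99 and 32.9 CPM in chow mice against 211 and 222 CPM in HFD mice (log2 fold change 3.04, SE 0.26, adjusted p = 2.28e-05). For both genes the HFD mice lay close together and far above chow. Ms4a4c (1.61), Gda (1.72) and S100a6 (1.35) were also higher by log2 fold change. Without HFD replicate 3 the median was 0.45, with 3 genes called higher and 1 lower. Ccr2, the receptor that brings monocytes out of the bone marrow, was not called, at 263 and 313 CPM in chow mice against 387 and 363 CPM in HFD mice (log2 fold change 0.38, SE 0.17, adjusted p = 0.236). The list of 7 defining monocyte markers, all measured, summed to 316 and 408 CPM in members of chow mice, against 1324 and 1278 CPM in those of HFD mice, with 1 to 3 markers at 0 per mouse, among them Ly6c2, which the rule set to 0. The other cells of the same mice held 2666 and 2420 CPM (chow) and 13498 and 11692 CPM (HFD). These markers moved with the diet in members and in the other cells, and their part in the diet differences of members was not tested.

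To describe how the diets differed along C1q, members were divided at C of 160, 200 and 250, which gave 27 to 379 cells per mouse and bin. Cx3cr1 stood at 136, 237, 275 and 614 CPM from the lowest to the highest bin in HFD replicate 1 and at 144, 188, 320.2 and 334 CPM in HFD replicate 3. Chow replicates 9 and 11 held 542, 493, 472 and 447 CPM and 465, 514, 497 and 604 CPM. On HFD Cx3cr1 was thus highest in the bin of highest C. Apoe, the lipid carrier, stood at 17710.5, 28089, 37854 and 53324 CPM and at 13286, 19519.8, 34454 and 45054 CPM in HFD replicates 1 and 3. Chow replicates 9 and 11 held 51589.8, 59279, 60981 and 69985 CPM and 48239, 58659.7, 61419 and 63207 CPM. For both genes the HFD mice lay nearer to chow in the highest bin than in the lowest. Plac8 went the other way on HFD, at 1494, 701, 546 and 428 CPM and 747, 825, 537 and 458 CPM, and stayed above every chow bin, which held 31.9 to 74.5 CPM. Cxcl9 showed no such order, at 303, 211, 324 and 224 CPM in HFD replicate 1 and 581, 679.9, 532 and 739 CPM in HFD replicate 3. All bins of a mouse share its library, and C enters the total of each cell, so these values are a description without a test. With the threshold raised to C of 200, a choice made after seeing the data, 34 genes were called, 27 higher and 7 lower, and 33 of them were among the 131. The interferon-gamma list then had a median of 1.71 with 9 genes called, the monocyte list 0.32 and the resident list -0.47. The interferon-gamma and monocyte values were not restricted to genes detected on chow, which entered through cells of either diet, and are a description.

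**Figure D2:**
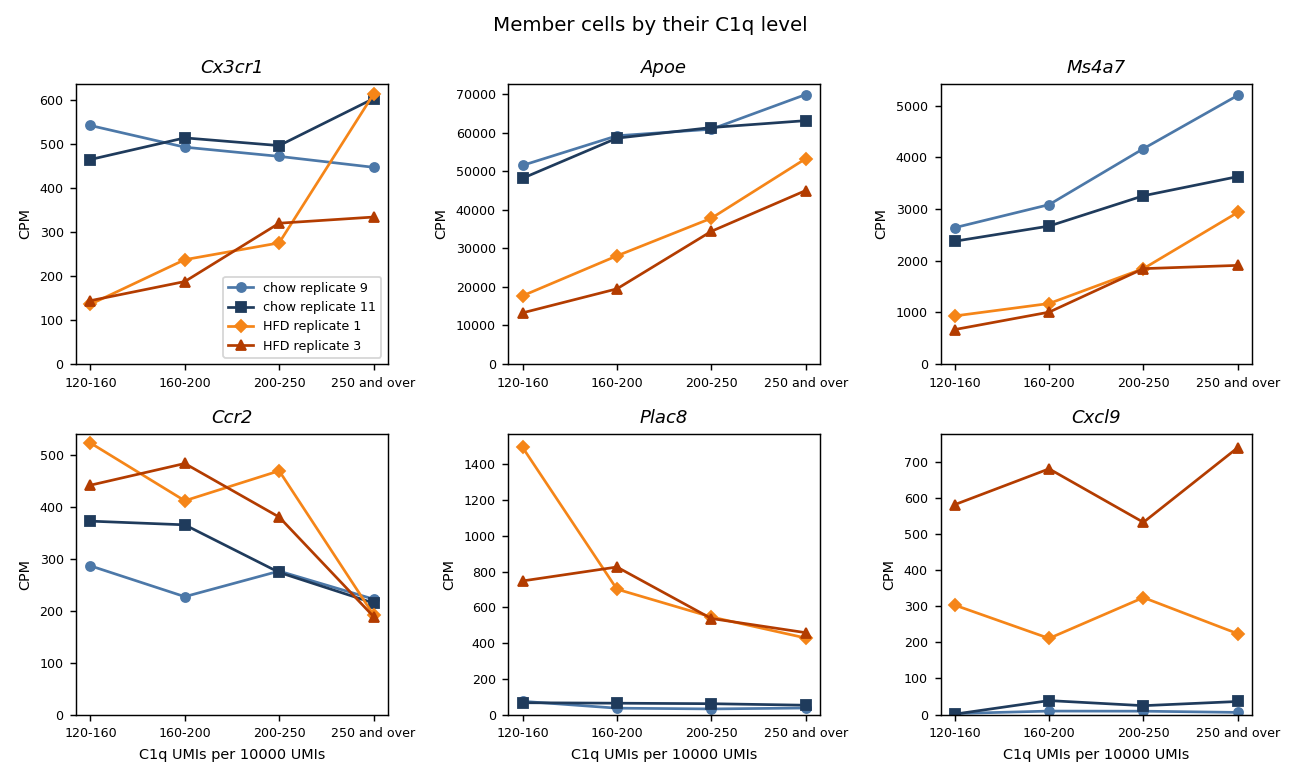
CPM (vertical axes) of 6 genes in members divided by their C1q UMIs per 10000 UMIs (horizontal axes), with 1 line per mouse. Cx3cr1, Apoe and Ms4a7 climbed with C1q on HFD, Ccr2 and Plac8 were lowest in the highest bin on HFD, and Cxcl9 stood above chow in every bin.

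Of 17 tested genes of the resident macrophage list, 15 had a negative fold change and 6 were called, all lower on HFD, with a median of -0.77. Apoe stood at 62645 and 60312 CPM in chow mice against 35158 and 25875 CPM in HFD mice (log2 fold change -1.01, SE 0.15, adjusted p = 0.00104). Adgre1 stood at 726 and 742 CPM in chow mice against 424 and 306 CPM in HFD mice (log2 fold change -1.01, SE 0.18, adjusted p = 0.00494). Cx3cr1 stood at 506 and 529 CPM in chow mice against 319.8 and 229 CPM in HFD mice (log2 fold change -0.92, SE 0.19, adjusted p = 0.00971). The tetraspanin Cd81 fell by 1.15, the chemokine Pf4 by 1.68 and Maf, a transcription factor of tissue macrophages, by 1.40. For each of them the diets did not overlap, and HFD replicate 3 was the lower of the HFD mice. Outside the lists, the Fc receptor-like gene Fcrls stood at 391 and 356 CPM in chow mice against 106 and 103 CPM in HFD mice (log2 fold change -1.83, SE 0.19, adjusted p = 7.68e-05). The membrane protein gene Ms4a7 stood at 3869 and 3085 CPM in chow mice against 1746 and 1252 CPM in HFD mice (log2 fold change -1.21, SE 0.18, adjusted p = 0.00115). Without HFD replicate 3 the list's median was -0.52 and only Pf4 of the list was called. Aif1, which encodes the macrophage protein IBA1, stood at 1703 and 1504 CPM in chow mice against 2206 and 2403 CPM in HFD mice (log2 fold change 0.52, SE 0.15, adjusted p = 0.044), which did not pass the threshold. Markers of Lyve1 type macrophages (4 of 5 measured) summed to 272 and 360 CPM in members of chow mice, against 163 and 104 CPM in those of HFD mice. Of 5 tested perivascular macrophage markers 4 had a negative fold change and 1 was called lower on HFD, with a median of -0.86. These markers moved with the resident genes, and their part in the fall was not tested.

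C3ar1 and C5ar1, receptors for complement fragments, were lower on HFD and C3 was higher. C3ar1 stood at 629 and 548 CPM in chow mice against 256 and 216 CPM in HFD mice (log2 fold change -1.32, SE 0.18, adjusted p = 6.01e-04). C5ar1 stood at 735 and 719 CPM in chow mice against 439.6 and 302 CPM in HFD mice (log2 fold change -0.97, SE 0.19, adjusted p = 0.00741). C3, the central component, stood at 10.96 and 15.3 CPM in chow mice against 62.1 and 75.9 CPM in HFD mice (log2 fold change 2.34, SE 0.30, adjusted p = 4.43e-04). These 3 were the called genes among 7 tested of the complement list, whose median was -0.32, and over the 6 detected in at least 5% of chow members, which leaves out C3, the median was -0.65 with 2 called lower and 0 higher. None of the list was called without HFD replicate 3, where C3 was not tested. Of 11 tested scavenger and endocytic receptors 2 were called, both lower, with a median of -0.11, and without HFD replicate 3 none. Mrc1, the mannose receptor, stood at 264 and 343 CPM in chow mice against 158 and 94.9 CPM in HFD mice (log2 fold change -1.29, SE 0.24, adjusted p = 0.00602). Dab2, an endocytic adaptor, stood at 451 and 566 CPM in chow mice against 256 and 96.1 CPM in HFD mice (log2 fold change -1.55, SE 0.31, adjusted p = 0.00941). In both genes HFD replicate 3 was the lowest mouse. On chow, Mrc1 and Dab2 were also lower in members than in Lyve1 or Cd163 positive cells (log2 difference -1.56 and -0.96). The Lyve1 type markers given above were lower in members on HFD too, and their part was not tested. No gene of the efferocytosis list (10 tested, median -0.24) or of the lysosome list (26 tested, median -0.19) was called by edgeR's test. Without HFD replicate 3, 1 gene of the lysosome list, Lyz1, was called lower (log2 fold change -2.44, edgeR's adjusted p = 0.00481), against 0.19 with all mice (adjusted p = 0.885). Axl, a receptor for dying cells, stood at 252 and 243 CPM in chow mice against 256 and 245 CPM in HFD mice (log2 fold change 0.02, SE 0.17, adjusted p = 0.965). The protease gene Ctss stood at 6322 and 6155 CPM in chow mice against 7550.2 and 8426 CPM in HFD mice (log2 fold change 0.36, SE 0.13, adjusted p = 0.127). Neither of these differed past the threshold. Of 17 genes of interleukin 10 and transforming growth factor beta signalling, with a median of -0.33, 1 was called. It was Il10rb, a subunit of the interleukin 10 receptor, at 226 and 242 CPM in chow mice against 115 and 132 CPM in HFD mice (log2 fold change -0.92, SE 0.19, adjusted p = 0.00971). Il10rb did not pass without HFD replicate 3, HFD replicate 1 or chow replicate 11, or with DESeq2's size factors in edgeR (adjusted p = 0.0885, 0.0608, 0.0151 and 0.0116).

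The growth factor Igf1 stood at 69.6 and 67.7 CPM in chow mice against 25.8 and 7.12 CPM in HFD mice (log2 fold change -2.14, SE 0.39, adjusted p = 0.00562) and was lowest in HFD replicate 3. Igfbp4, which binds such growth factors, stood at 58.1 and 63.4 CPM in chow mice against 19.7 and 5.93 CPM in HFD mice (log2 fold change -2.32, SE 0.40, adjusted p = 0.0037). The collagenase Mmp13 stood at 805 and 708 CPM in chow mice against 391 and 389 CPM in HFD mice (log2 fold change -0.95, SE 0.16, adjusted p = 0.00368). In all of them the diets did not overlap. Gdf15, a stress-induced cytokine, stood at 267 and 239 CPM in chow mice against 71.2 and 73.5 CPM in HFD mice (log2 fold change -1.80, SE 0.20, adjusted p = 1.45e-04). Emp1 (-2.13), Tsc22d1 (-1.95), Serpinf1 (-1.85) and Ecm1 (-1.61) were lower as well by log2 fold change, as was the unnamed Gm37795 (-2.53). Of 14 tested genes of tissue remodelling 2 were called, Igf1 and Mmp13, with a median of -0.33, and without HFD replicate 3 none. Igf1, Igfbp4 and Gm37795 had a UMI in under 5% of HFD members and passed the filter through the chow cells. Their values, and the list's count and median with Igf1, are therefore a description. With Igf1 left out, Mmp13 was the only called gene of the list.

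Of 19 tested genes of class I presentation 16 had a positive fold change and 6 were called, all higher, with a median of 0.71. The peptide transporter Tap1 stood at 40.6 and 66.1 CPM in chow mice against 188 and 206 CPM in HFD mice (log2 fold change 1.85, SE 0.23, adjusted p = 4.16e-04). The others were the immunoproteasome subunits Psmb8 (log2 fold change 1.30), Psmb9 (1.24) and Psmb10 (1.23), and the proteasome activators Psme1 (1.00) and Psme2 (1.27). The heavy chain H2-K1 did not pass, at 1133 and 1493 CPM in chow mice against 1909.9 and 2158 CPM in HFD mice (log2 fold change 0.63, SE 0.16, adjusted p = 0.0329). None of the 6 was called without HFD replicate 3, where the median was 0.83. Of 14 class II genes the 2 called ones were Ifi30, a thiol reductase of the endosome (1.32), and the costimulatory receptor Cd40 (1.15), and the list's median was -0.05. Neither was called without HFD replicate 3. The class II chain H2-Ab1 itself stood at 29995 and 28715 CPM in chow mice against 29611 and 27888 CPM in HFD mice (log2 fold change -0.03, SE 0.12, adjusted p = 0.919). The invariant chain Cd74 stood at 29562 and 26861 CPM in chow mice against 29332 and 24672 CPM in HFD mice (log2 fold change -0.06, SE 0.13, adjusted p = 0.839). For both, HFD replicate 1 lay between the chow mice.

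All 72 tested nuclear genes for the respiratory chain and the ATP synthase had a positive fold change, from 0.09 to 1.23 with a median of 0.71, and 14 were called. Cox5a, a subunit of cytochrome c oxidase, stood at 494 and 447 CPM in chow mice against 808 and 1028 CPM in HFD mice (log2 fold change 0.97, SE 0.17, adjusted p = 0.00433). Ndufc1, of complex I, stood at 107 and 80.8 CPM in chow mice against 194 and 241 CPM in HFD mice (log2 fold change 1.23, SE 0.21, adjusted p = 0.00368). Atp5e, of the ATP synthase, stood at 253 and 185 CPM in chow mice against 471 and 452 CPM in HFD mice (log2 fold change 1.08, SE 0.19, adjusted p = 0.00431). In each the chow mice were the lower pair. Of 10 genes encoded by the mitochondrion 0 were called by edgeR's test, and their median was -0.05. mt-Cytb stood at 2943 and 2620.0 CPM in chow mice against 2949.8 and 2159.5 CPM in HFD mice (log2 fold change -0.12, SE 0.16, adjusted p = 0.737). Of 13 glycolysis genes 2 were called, both higher, with a median of 0.63. They were Pfkp, a phosphofructokinase (1.51), and Hk3, a hexokinase (1.80), and neither was called without HFD replicate 3. At C of at least 200 the respiratory list had a median of 0.52 and 0 of its genes were called, and without HFD replicate 3 the median was 0.59 and again 0 were called. Among 14 genes of lipid handling, Fabp5, a fatty acid carrier, stood at 42.8 and 56.5 CPM in chow mice against 265 and 143 CPM in HFD mice (log2 fold change 2.01, SE 0.27, adjusted p = 6.38e-04). The cholesterol exporter Abcg1 stood at 101 and 125 CPM in chow mice against 218 and 272 CPM in HFD mice (log2 fold change 1.11, SE 0.20, adjusted p = 0.00464). Both were higher on HFD while Apoe was lower, and the list's median was 0.00. Only Fabp5 of the list was called without HFD replicate 3.

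Of 12 chemokines 4 were called higher and 4 lower, and over the 10 detected in at least 5% of chow members, which leaves out Cxcl9 and Ccl5, 2 were called higher and 4 lower. Higher were Cxcl9 and Ccl5, which the interferon-gamma list also holds, Ccl8 and Ccl12. Ccl8, a monocyte chemokine, stood at 66.3 and 164 CPM in chow mice against 461 and 1523 CPM in HFD mice (log2 fold change 3.08, SE 0.46, adjusted p = 0.00125), with HFD replicate 3 far above the rest. Lower were Cxcl1, Cxcl2, Ccl3 and Pf4, which the resident list also holds. The neutrophil chemokine Cxcl1 stood at 1685 and 1542 CPM in chow mice against 611 and 605 CPM in HFD mice (log2 fold change -1.41, SE 0.15, adjusted p = 1.35e-04). Cxcl2, of the same family, stood at 9736 and 8573 CPM in chow mice against 5901 and 4704 CPM in HFD mice (log2 fold change -0.79, SE 0.15, adjusted p = 0.00612). Ccl3, a chemokine of inflamed tissue, stood at 3710.3 and 3602 CPM in chow mice against 2315 and 1449 CPM in HFD mice (log2 fold change -0.96, SE 0.19, adjusted p = 0.00825). In all 3 both HFD mice were below both chow mice. Without HFD replicate 3, 2 chemokines were called higher and 2 lower. Il1b, which encodes interleukin 1 beta, stood at 10821 and 11340.1 CPM in chow mice against 7796 and 7016 CPM in HFD mice (log2 fold change -0.58, SE 0.13, adjusted p = 0.0162) and did not pass. Of 21 immediate-early genes 4 were called lower, Fos (-0.86), Jun (-1.81), Atf3 (-1.38) and Nr4a1 (-1.01), 1 higher, Nr4a2 (1.60), and their median was -0.56. Jun differed between the chow mice, at 1732 and 762 CPM in chow mice against 435 and 276 CPM in HFD mice (log2 fold change -1.81, SE 0.31, adjusted p = 0.00396). Heat shock genes had a median of -0.54 over 12, and Hspa1a, the inducible HSP70, stood at 1543 and 1459.8 CPM in chow mice against 769 and 459 CPM in HFD mice (log2 fold change -1.29, SE 0.21, adjusted p = 0.00222), with Dnajb1 also lower (-1.07). No immediate-early or heat shock gene was called without HFD replicate 3. Immediate-early and heat shock genes respond to tissue dissociation, which was not measured, and its part was not tested. Of 21 genes of toll-like receptor signalling only Cd83 was called (-1.19), and the list's median was -0.43. Leaving out HFD replicate 3 gave a median of -0.21 with none called.

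**Figure D3:**
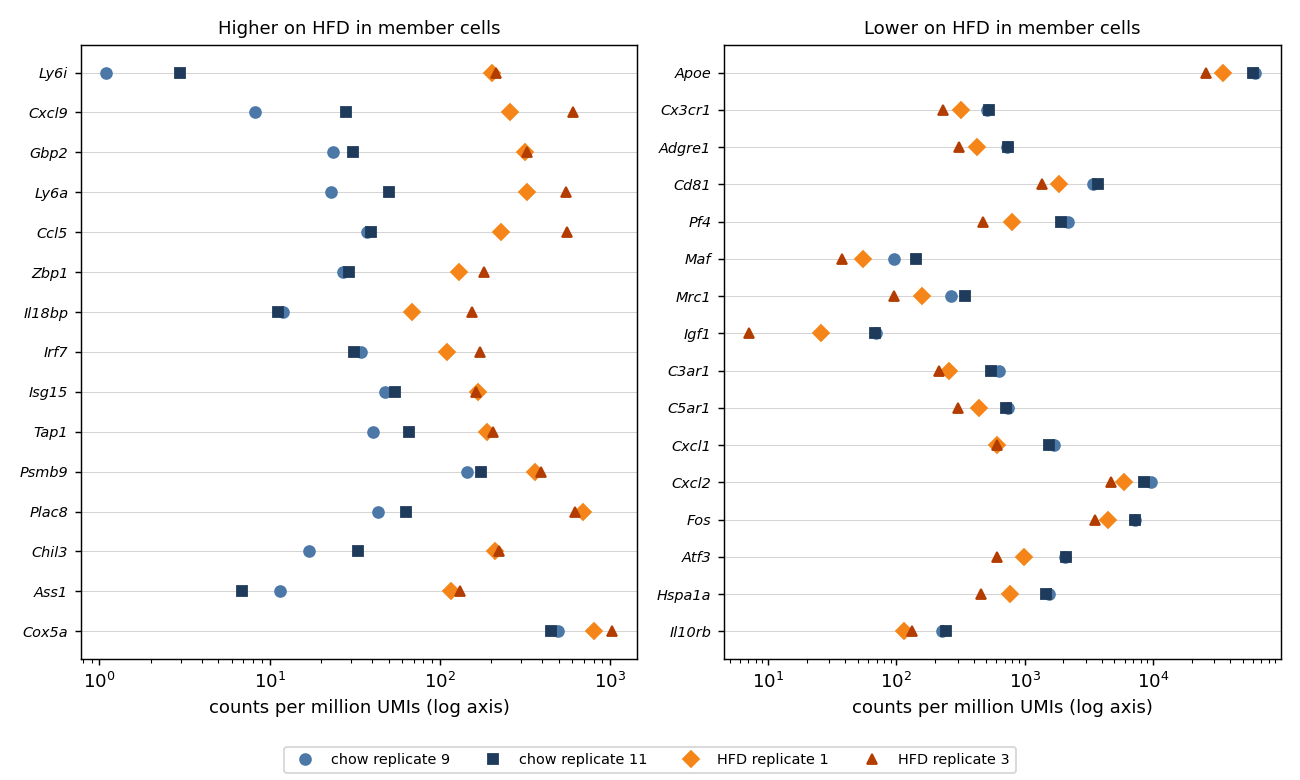
CPM of called genes in members (log axis), with 1 symbol per mouse. For the genes on the left both HFD mice stand above both chow mice, and for those on the right both stand below.

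**Figure D4:**
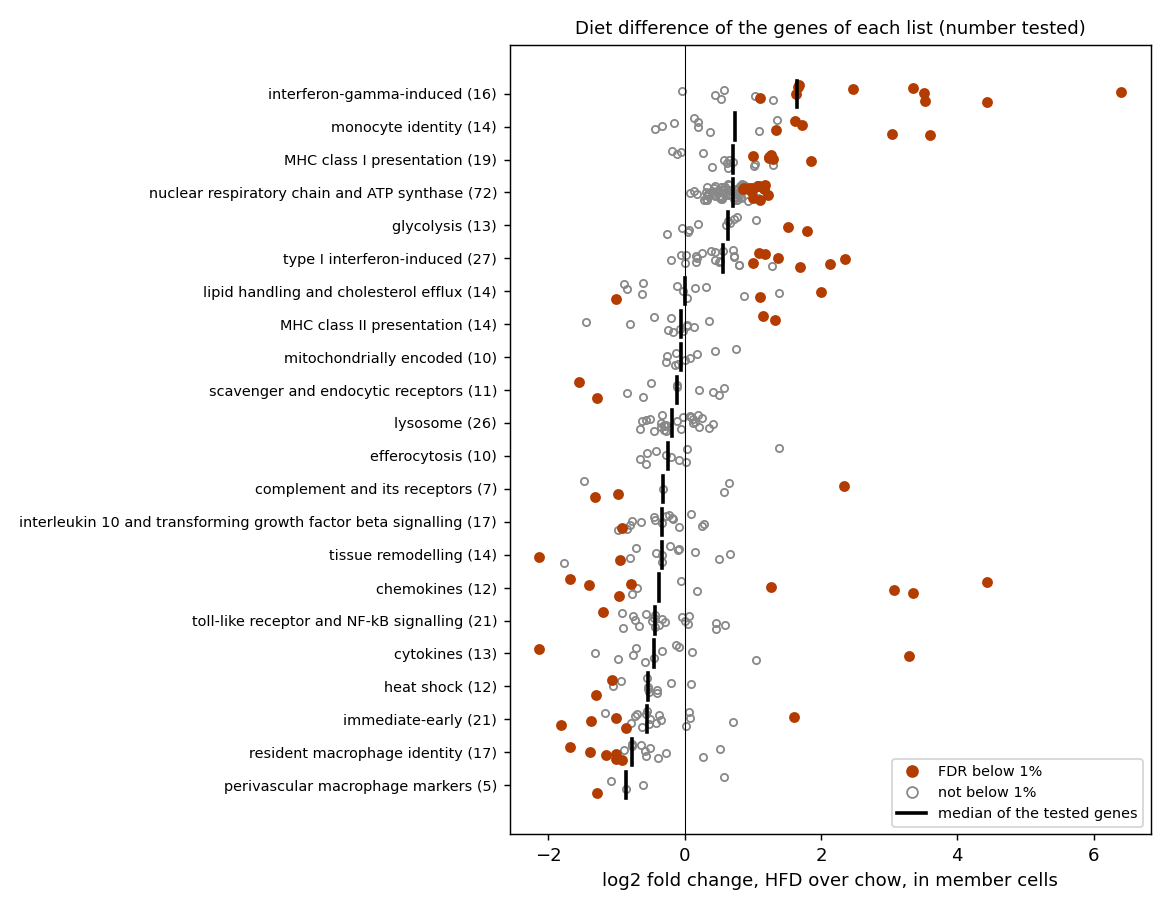
Log2 fold change of HFD over chow (horizontal axis) of every tested gene of each list in members, with filled points past the 1% threshold and the list's median as a bar. All 72 respiratory chain genes lie right of 0, and resident macrophage genes lie mostly left of it.

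Whether the diet difference was alike in members and Cd4-positive cells was tested by their interaction in a fit that also held the mouse. The Cd4-positive cells met the same rule but carried a Cd4 UMI, 183 and 373 on chow and only 19 and 17 on HFD. Of 5049 genes 7 were called (0.139%), and the median over all was 0.10. Lmna, which encodes lamin A, stood at 850.2, 778, 296 and 284 CPM in members against 865, 919, 487 and 857 CPM in Cd4-positive cells (interaction -1.09, SE 0.21, adjusted p = 0.0028). Its fall on HFD was thus larger in members. Interactions in the same direction were called for H2-M2 (-1.03), Ccl4 (-0.68), Ms4a7 (-0.67) and Apoe (-0.44). Clec7a, the beta-glucan receptor Dectin-1, stood at 644, 521, 974 and 1303 CPM in members against 619, 493, 539.7 and 594 CPM in Cd4-positive cells (interaction 0.94, SE 0.19, adjusted p = 0.00539) and was higher on HFD in members. The elastase Mmp12 stood at 582, 243, 132 and 512 CPM in members against 605, 296, 39.5 and 103 CPM in Cd4-positive cells (interaction 2.35, SE 0.37, adjusted p = 8.01e-05), and its member values overlapped between diets. None of the 15 interferon-gamma-induced genes tested was called in the interaction, with a median of 0.07. Leaving out chow replicate 9 or chow replicate 11 left 0 calls each (102 and 120 genes at an unadjusted p under 0.05), and so did the newer form of edgeR's test, with adjusted degrees of freedom (371 genes).

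Few genes were called between members and Cd4-positive cells of the same mice. On HFD the Cd4-positive sums held only 19 and 17 cells, and members can include cells with Cd4 below detection. Few calls therefore do not show that the groups were alike. With a term for each mouse, 11 of 5049 genes were higher in members (0.218%) and 5 lower (0.099%). Values are given for members and Cd4-positive cells in chow replicates 9 and 11 and HFD replicates 1 and 3. Ccr2 stood at 259, 309.5, 383 and 359 CPM in members against 68.6, 132, 92.1 and 183 CPM in Cd4-positive cells (log2 difference 1.47, SE 0.14, adjusted p = 1.97e-08), higher in members in every mouse. S100a6, a calcium-binding protein of migrating cells, stood at 161, 141, 448 and 322 CPM in members against 65.4, 62.7, 105 and 114 CPM in Cd4-positive cells (log2 difference 1.32, SE 0.14, adjusted p = 1.76e-07). Alox5ap, needed for leukotriene synthesis, stood at 134, 184, 247 and 203 CPM in members against 63.3, 90.1, 52.7 and 114 CPM in Cd4-positive cells (log2 difference 1.09, SE 0.15, adjusted p = 1.66e-05). Tmsb10 (1.10), Ccl5 (1.44), Ccl9 (0.92), Tnip3 (0.90), S100a10 (0.87) and Clec12a (1.29) were also higher in members. Retnla (1.46) and Lyz1 (1.06) were called higher too. The direction did not hold in every mouse for Lyz1, reversed in HFD replicate 1, or for S100a10 and Clec12a, reversed in HFD replicate 3. Retnla was close to undetected in HFD replicate 3, at 1.17 CPM in members against 0 CPM in Cd4-positive cells. Clec12a stood at 89.9, 80.2, 129 and 153 CPM in members against 21.1, 26.9, 39.5 and 251 CPM in Cd4-positive cells. H2-M2, a nonclassical MHC class I gene, stood at 659, 699, 459 and 270.2 CPM in members against 854, 1136, 1829.6 and 491 CPM in Cd4-positive cells (log2 difference -0.88, SE 0.14, adjusted p = 2.93e-04), lower in members in every mouse. Npl, an enzyme of sialic acid breakdown (-0.77), the C-type lectin Clec4n (-0.49), the nuclease Dnase1l3 (-0.46) and Apoe (-0.49) were lower in members. DESeq2 and the adjusted degrees of freedom called 5 genes each, Ccr2, S100a6, Alox5ap, Tmsb10 and Ccl5. Of the monocyte list 4 of 14 were called higher in members, with a median of 0.43, beside 0.0025 over all genes. The defining monocyte markers summed to 119, 309, 786 and 977 CPM in Cd4-positive cells, below members in every mouse, and their part was not tested. Of 17 resident genes 1 was called, and the median was -0.22. Cx3cr1 itself stood at 499.8, 522, 317.2 and 227 CPM in members against 578, 597, 592 and 354 CPM in Cd4-positive cells (log2 difference -0.35, SE 0.11, adjusted p = 0.305). Cd4-positive cells had a median of 5228, 4570, 3539 and 4829 UMIs, and the calls were 14 when both were thinned to 2000 UMIs per cell, 13 of them shared.

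Cells with Lyve1 or Cd163 met the C1q, Ly6c2 and AA467197 conditions but held at least 2 UMIs of Lyve1 and Cd163, so those genes were not tested. They numbered 16 and 86 on chow and 4 and 2 on HFD, so only the 2 chow mice entered, with 77696 and 313732 UMIs in these cells. Of 4924 genes 30 were higher in members (0.609%) and 39 lower (0.792%), each in both mice. Of class II presentation 7 of 14 genes were called, all higher in members, with a median of 0.89 against 0.02 over all genes. Cd74 stood at 30800.5 and 28117 CPM in members against 9421 and 10106 CPM (log2 difference 1.59, SE 0.11, adjusted p = 3.57e-05). H2-Ab1 stood at 31252 and 30057 CPM in members against 11099 and 11259 CPM (log2 difference 1.45, SE 0.11, adjusted p = 4.22e-05). H2-Eb1 stood at 19324 and 20341 CPM in members against 6632 and 7838 CPM (log2 difference 1.46, SE 0.11, adjusted p = 5.62e-05). Each class II chain was thus higher in members of both mice. Il1b stood at 11274 and 11870.2 CPM in members against 5208 and 5401 CPM (log2 difference 1.13, SE 0.11, adjusted p = 2.96e-04). Ccl3 stood at 3866 and 3769.9 CPM in members against 1053 and 2182 CPM (log2 difference 1.25, SE 0.21, adjusted p = 0.00787). Mmp12 (2.30), Zmynd15 (2.33), H2-M2 (2.77), the early activation marker Cd69 (2.13) and Dnase1l3 (1.41) were higher in members as well, and H2-M2 was at 0 in the Lyve1 or Cd163 positive cells of chow replicate 9. On the other side, Retnla, a secreted protein of alternatively activated macrophages, stood at 39.4 and 84.1 CPM in members against 1644 and 2056 CPM (log2 difference -4.91, SE 0.20, adjusted p = 5.79e-07). The eosinophil chemokine Ccl24 stood at 14.9 and 14.8 CPM in members against 370.4 and 317.3 CPM (log2 difference -4.50, SE 0.31, adjusted p = 3.04e-05). Ccl7, a monocyte chemokine, stood at 404 and 639 CPM in members against 2349.5 and 3268 CPM (log2 difference -2.44, SE 0.14, adjusted p = 6.62e-06). Of 11 scavenger receptors 6 were called, all lower in members, with a median of -0.96, among them Cd36 (-2.21), Mrc1 (-1.56) and Stab1 (-1.55). Retnla and Ccl24 were low in members of both mice. Of 5 tested perivascular macrophage markers all had a negative difference and 4 were called lower in members, and Pf4 (-1.81), Igf1 (-2.28) and Maf (-1.38) were lower too. Adgre1 stood at 757 and 777 CPM in members against 718 and 738 CPM (log2 difference 0.07, SE 0.15, adjusted p = 0.921) and did not pass the threshold. With adjusted degrees of freedom 0 genes were called (600 at an unadjusted p under 0.05), and DESeq2 called 69. With a mouse left out 1 remains, and no test was made.

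**Figure D5:**
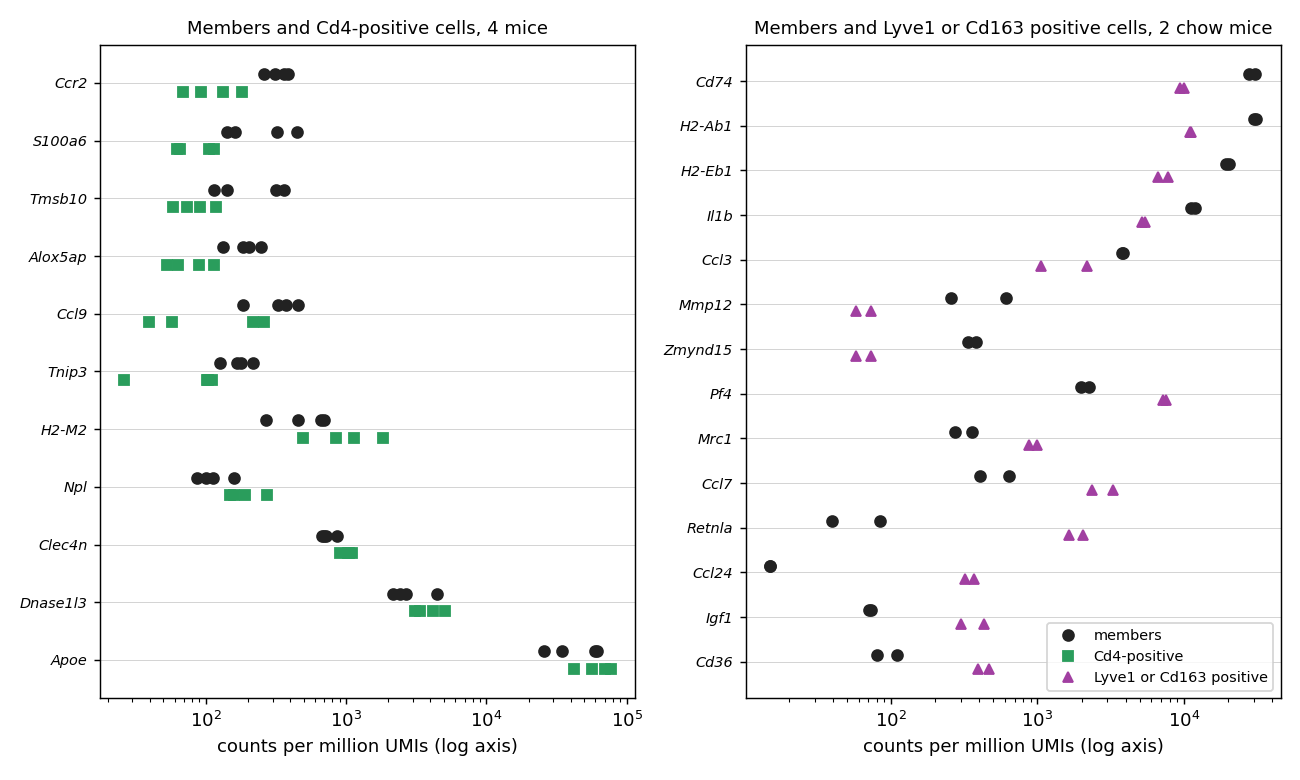
CPM (log axes) of genes in members and Cd4-positive cells of 4 mice, left, and in members and Lyve1 or Cd163 positive cells of the 2 chow mice, right, with 1 symbol per mouse. Ccr2 stands higher in members in every mouse, class II genes stand higher in members, and Retnla and Ccl24 lower.

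Members also varied among themselves within each mouse. Genes were ranked by the spread of their counts beyond counting noise (excess squared coefficient of variation), among 3110 genes with at least 0.1 UMIs per member in every mouse, and the ranks were averaged over the 4 mice. The highest ranks went to Spp1, which encodes osteopontin, Gpnmb, Gm43936, S100a4, Ccl7, Rrad, Ccl8, Fabp5, Tmx4, Ccl5, Ccl12, the cytokine Il10, Pgf, Adamdec1 and Ifitm1. Spp1 had a UMI in 4.57, 3.98, 5.92 and 10.7% of members, and Gpnmb, a lysosomal glycoprotein of lipid-laden macrophages, in 5.94, 6.90, 6.51 and 3.95%. Few members carried these transcripts in any mouse. Il10 had a UMI in 14.6, 28.7, 14.2 and 9.60% of members and Ccl12 in 36.99, 41.1, 51.5 and 42.9%. Ccl8 was detected in 9.13, 13.3, 26.6 and 42.9% and Ccl5 in 2.28, 4.07, 23.7 and 37.9%, and for both the HFD mice had the higher shares. The detected shares depend on depth, which was a median of 4069, 3795, 3614 and 4341 UMIs per member.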

How the data were processed

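UMI counts of single sorted cells of the colon, from 2 mice on chow and 2 on HFD, were analysed. Per the submitters' processing notes, the labels and the study's methods, the authors used kallisto 0.46.0 for alignment to mm10, then bustools 0.39.2, removed poor cells and rare genes, kept macrophages and monocytes, and deposited the counts as they were. Their filters set which cells could be members. The matrix held 11820 genes, of which 11819 were matched to GENCODE M21 (GRCm38), the source of symbols and coordinates. The mouse of a cell was read from its name. A mouse gave 3824228 to 7947893 UMIs.

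UMIs of members and of both comparison groups were summed per mouse. Sums of at least 10 cells were tested with edgeR (version 4.0.16, R version 4.3.3), TMM normalization and the quasi-likelihood test in its legacy form, for genes above 1 CPM in at least 2 sums and detected in at least 5% of cells. The rule's genes counted in the totals and were not tested. Differences between groups of cells had a term for each mouse. SE is the log2 fold change divided by the root of the test statistic. Cells above 3 times their mouse's median UMIs (37 cells), possible doublets, were kept and left out in an alternative. The script was tested on simulated data. Members and gene lists were chosen with earlier results of these data known.

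Named were up to 12 rises and 12 falls per comparison, past 1% and on the same side in every mouse, the markers, in each list the 4 most abundant genes and those past 1%, and the 15 most variable genes. Clec12a was named after its values were seen, and some genes under this rule are not reported here. Alternatives were DESeq2 (version 1.42.0) and its size factors, the likelihood-ratio test, no filter, C of 100 and 150, at least 3000 UMIs, thinning, no deep cells and leaving out each mouse. Adjusted degrees of freedom, C of 200, equal cells per mouse and detection in either diet were added after seeing the data. Replicates are separate mice.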

Additional observations from a re-analysis of the deposited data

Results flagged for a closer look

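For 7 genes the difference between diets was itself different between members and Cd4-positive cells of the same mice, by the interaction test in edgeR at an adjusted p under 0.01. The interaction, on the log2 scale, was -1.09 for Lmna, -1.03 for H2-M2, -0.68 for Ccl4, -0.67 for Ms4a7 and -0.44 for Apoe, whose HFD level relative to chow was lower in members. It was 0.94 for Clec7a and 2.35 for Mmp12, whose HFD level relative to chow was higher in members. The Cd4-positive sums on HFD held 19 and 17 cells with 76327 and 84964 UMIs. At C of at least 150 only Mmp12 was called, and without deep cells only Lmna and Mmp12.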

How the results depend on the processing

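The member share was lower on HFD and the Cd4-negative share higher under every alternative run. Leaving out a mouse moved the member difference between -42.0 and -34.0 points and the Cd4-negative difference between 15.4 and 20.03 points, and thinning gave -45.3 and 11.1 points. The diet calls in members (131) were 396 without a filter, 270 by the likelihood-ratio test, 55 at C of 150, 34 at C of 200 and 85 in cells of at least 3000 UMIs. Leaving out a mouse gave 19 to 255 calls, lowest without HFD replicate 3 and highest without chow replicate 9. The other alternatives gave 95 to 146 calls. The calls against Cd4-positive cells (16) were 29 without a filter, 36 by the likelihood-ratio test, 29 in cells of at least 3000 UMIs, 5 by DESeq2 and 5 with adjusted degrees of freedom (the newer form of edgeR's test, chosen after seeing the data, as was C of 200), and 9 to 13 with a mouse left out, lowest without chow replicate 11. Against Lyve1 or Cd163 positive cells (69) they were 132 without a filter, 135 by the likelihood-ratio test, 160 at C of 100, 114 at C of 150 and 0 with adjusted degrees of freedom (600 genes at an unadjusted p under 0.05, 69 calls by DESeq2). The interaction calls (7) were 12 by the likelihood-ratio test, 1 at C of 150, 2 without deep cells, 0 with adjusted degrees of freedom and 0 to 10 with a mouse left out, 0 without chow replicate 9 and 0 without chow replicate 11 (102 and 120 genes at an unadjusted p under 0.05 by edgeR). Without a filter the median over all genes moved to 0.28 in the comparison with Lyve1 or Cd163 positive cells and to 0.49 in the interaction, with 85 of 132 and 5 of 6 calls higher. Of the 131 diet calls 75 were higher and 56 lower. The split was 38 and 17 at C of 150 and 27 and 7 at C of 200, 53 and 52 without HFD replicate 1, and it turned to 85 and 102 without chow replicate 11. With DESeq2's size factors, Cx3cr1, Ccl3, Dab2, Dnajb1, Phf11b and Rtp4 also missed the threshold in the diet comparison (adjusted p of 0.0104 to 0.0122 by edgeR), and DESeq2 did not call Dab2, Jun, Ccl8, Phf11b and Rtp4 (adjusted p of 0.164, 0.0578, 0.024, 0.0118 and 0.0107). The cause of these changes was not tested. No interaction could be fitted with Lyve1 or Cd163 positive cells, whose HFD sums held 4 and 2 cells, and leaving out a mouse could not be tested there. No paired analysis was possible because the diets share no replicate number. With 2 mice per diet, no exact test of a single value can pass a threshold.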
